A study of Mus musculus with 12 samples.

Results

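The genes of cholesterol and sterol synthesis were followed across 12 RNA-seq libraries from the brains of 8 mice, in which the clock gene Bmal1 (official symbol Arntl) can be removed from astrocytes. The 29 genes came from a list of names, matched through mouse symbols to Ensembl identifiers. All 29 were found among the 41388 genes of each library, and all 29 passed the filter on low counts in every comparison. All mice carried the floxed allele (Bmal fl/fl) on a C57BL\6 background. Mice named aKO were also Cre+ for ALDH1L1-CreERT2, a Cre recombinase that tamoxifen switches on in cells that use the Aldh1l1 promoter, chiefly astrocytes. Mice named WT were Cre-. Tamoxifen was given by gavage to both genotypes when they were 2 months old (2 mg daily over 5 days), and brains were collected at 7 months. After collagenase digestion, cells held by beads against ACSA-2, a surface epitope of astrocytes, were kept as astrocytes, and the cells that passed were kept as flowthrough. There were 5 aKO astrocyte libraries (animals 203, 205, 208, 221 and 222), 3 WT astrocyte libraries (201, 202 and 265), 2 aKO flowthrough libraries (203 and 205) and 2 WT flowthrough libraries (201 and 202). For the astrocyte library of animal 202 the title says WT and the genotype field says knockout. The title was followed, since the same animal's flowthrough and the sample numbers of the design text also give WT.

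Cholesterol is built from acetyl-CoA. The mevalonate pathway turns acetyl-CoA into isoprenoid units, squalene synthase joins these into squalene, and squalene is closed to lanosterol, whose rings and side chain are then trimmed to cholesterol. SREBP2, the product of Srebf2, switches on most of these genes when sterols are low: SCAP escorts it out of the endoplasmic reticulum, and the INSIG proteins hold SCAP back when sterols are plentiful. The brain makes its own cholesterol because lipoproteins do not cross from the blood, and in the adult brain astrocytes supply much of it to neurons while oligodendrocytes use it for myelin.

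Of the 29 genes, 25 had a promoter window in the RefSeq table (build GRCm38.p6; 33 windows, each 250 bases before to 50 bases after a transcript's start). These windows were searched on both strands for TCACNCCAC, a form of the sterol regulatory element that SREBPs bind, for CACGTG, an E-box of the kind that BMAL1 with CLOCK can bind, and for CCAAT, the box bound by NF-Y, a partner of SREBPs. TCACNCCAC was found in 1 of the 25 genes (Hmgcs1) and in 1.44% of all 27025 genes with a window. CACGTG was found in 5 of the 25 genes, or 20% (Hsd17b7, Sc5d, Dhcr7, Scap and Insig1), and in 8.09% of all genes. CCAAT was found in 22 of the 25 genes, or 88%, and in 41.1% of all genes. No match of one motif overlapped a match of another in the windows shown. Shown are the 250 bases before the start of Hmgcs1, which holds the sterol regulatory element, and of the 4 genes with CACGTG in this stretch that were higher in astrocytes below. Capitals mark the matches, with ATTGG being CCAAT on the other strand.
Hmgcs1 (chr13:119690101-119690350, plus strand): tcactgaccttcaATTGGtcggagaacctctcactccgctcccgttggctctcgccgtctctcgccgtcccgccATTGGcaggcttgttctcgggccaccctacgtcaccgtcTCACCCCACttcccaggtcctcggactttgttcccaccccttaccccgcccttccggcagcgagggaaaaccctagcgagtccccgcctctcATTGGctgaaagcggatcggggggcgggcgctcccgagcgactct
Insig1 (chr5:28071162-28071411, plus strand): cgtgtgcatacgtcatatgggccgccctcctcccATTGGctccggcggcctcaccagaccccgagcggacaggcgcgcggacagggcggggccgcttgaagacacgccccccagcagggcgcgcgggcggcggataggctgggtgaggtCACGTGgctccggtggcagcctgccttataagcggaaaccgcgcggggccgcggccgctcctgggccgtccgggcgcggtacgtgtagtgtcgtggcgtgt
Dhcr7 (chr7:143823149-143823398, plus strand): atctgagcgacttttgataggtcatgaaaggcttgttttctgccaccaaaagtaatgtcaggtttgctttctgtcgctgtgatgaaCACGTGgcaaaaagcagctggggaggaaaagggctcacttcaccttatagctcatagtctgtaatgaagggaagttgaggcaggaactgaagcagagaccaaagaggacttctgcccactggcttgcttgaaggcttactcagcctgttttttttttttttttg
Hsd17b7 (chr1:169969206-169969455, minus strand): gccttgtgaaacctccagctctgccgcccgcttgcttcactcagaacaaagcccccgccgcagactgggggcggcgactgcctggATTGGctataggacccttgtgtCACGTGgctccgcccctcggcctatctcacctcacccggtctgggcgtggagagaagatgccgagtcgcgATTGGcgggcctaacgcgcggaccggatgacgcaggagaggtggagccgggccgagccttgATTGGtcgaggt
Sc5d (chr9:42264301-42264550, minus strand): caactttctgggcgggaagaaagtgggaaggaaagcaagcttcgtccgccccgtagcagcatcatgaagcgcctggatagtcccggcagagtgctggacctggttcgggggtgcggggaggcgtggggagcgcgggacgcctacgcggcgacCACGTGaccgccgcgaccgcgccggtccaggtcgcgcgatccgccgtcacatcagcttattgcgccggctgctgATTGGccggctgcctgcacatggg
The match to TCACNCCAC lies 137 bases before the Hmgcs1 start. CACGTG begins 101 bases before the Insig1 start, 164 bases before the Dhcr7 start shown, 143 bases before the Hsd17b7 start and 98 bases before the Sc5d start. The other Dhcr7 windows held no CACGTG, and the CCAAT matches of Dhcr7 were in a window not shown. These are matches of letters, and no binding was measured.

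Total counts were 21816637 to 62655238 in astrocyte libraries and 33019572 to 53868165 in flowthrough libraries, and each of the 29 genes had between 82 and 37401 counts in each library. Arntl itself had 5.91 to 17.5 scaled CPM in aKO astrocytes and 2.23 to 7.52 in WT astrocytes (scaled CPM is CPM computed with TMM-scaled library sizes). A whole-gene count can include reads from exons outside the deleted stretch, so it checks neither the deletion nor the labels. Astrocyte libraries held all 15 astrocyte markers searched, at 0.424% to 1.86% of counts, against 0.0568% to 0.703% in flowthrough. They also held oligodendrocyte markers at 0.379% to 2.34% of counts, against 0.0958% to 0.671% in flowthrough, so the isolated fraction was not astrocytes alone. Microglial markers were at 0.0347% to 0.0761% in astrocytes and at 0.723% to 1.22% in flowthrough. All astrocyte, oligodendrocyte and microglial markers had counts in each of the 12 libraries. Choroid plexus markers, mostly Ttr, took 1.22% to 17.1% of counts in astrocytes and 8.28% to 32.2% in flowthrough, and leaving Ttr and the mitochondrially encoded genes out of the library sizes left at 12 the count of sterol genes called between the fractions.

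Sterol synthesis genes were more abundant in the astrocyte fraction than in the flowthrough. Between the fractions, 12 of the 29 genes were higher in astrocytes and 0 were lower, by 2.06- to 5.16-fold, against 8.52% of all 20637 genes tested that were higher and 17.0% that differed in either direction (edgeR's quasi-likelihood test, Benjamini-Hochberg adjusted p under 0.05). The 12 ran from acetyl-CoA to the last steps of the pathway: Acss2 makes acetyl-CoA from acetate, Hmgcs1, Mvd and Idi1 act in the mevalonate pathway, Sqle opens the way from squalene to sterols, and Cyp51, Tm7sf2, Msmo1, Hsd17b7, Sc5d and Dhcr7 work on the sterol ring. Insig1, the sterol-responsive brake on SCAP, was the other. The estimate was above 0 for 26 of the 29 genes, with a median log2 fold change of 0.93, against 53.1% and a median of 0.07 over all genes tested. In bulk RNA, a larger share of sterol-making cells and more of these transcripts per cell cannot be told apart.

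**Figure D1:**
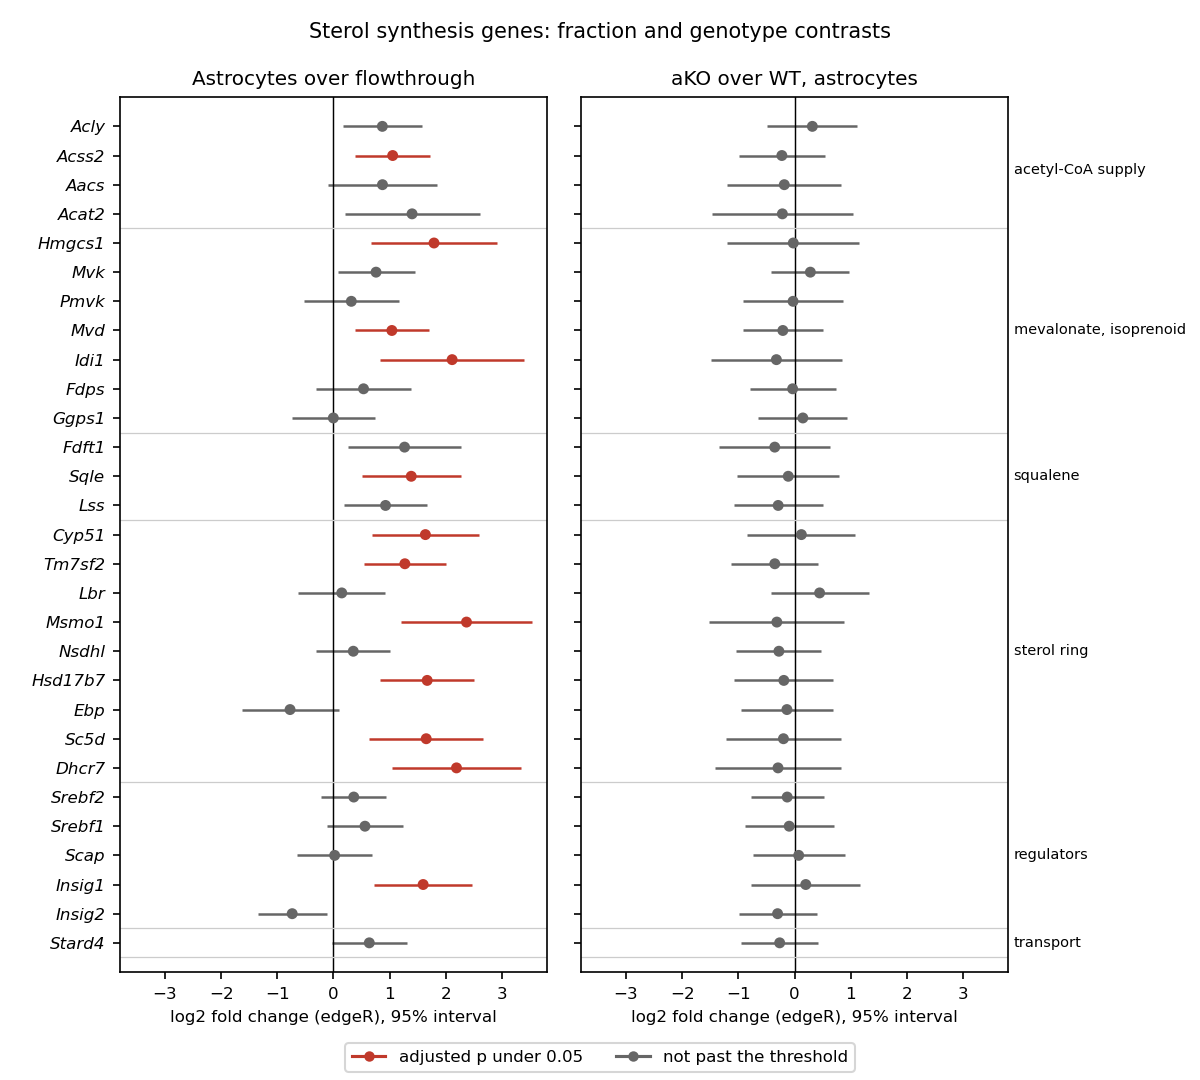
Log2 fold change of each of the 29 genes (points) with its 95% interval (bars) for astrocytes over flowthrough (left) and for aKO over WT astrocytes (right), grouped by role; red marks an adjusted p under 0.05. On the left 12 genes are red and lie right of 0, and on the right all 29 intervals span 0.

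The sterol ring enzymes had the most members past the threshold, 6 of 9. Msmo1, the oxidase that starts removal of the C4 methyl groups, had 78.3, 350.3 and 524 scaled CPM (lowest, median, highest) in astrocytes, against 43.6 and 28.1 in aKO flowthrough and 68.8 and 172 in WT flowthrough. All astrocyte libraries but aKO 222 and WT 265 lay above all flowthrough libraries. It was 5.16-fold higher in astrocytes (log2 fold change 2.37, SE 0.55, adjusted p = 0.00748, edgeR). Hsd17b7, the ketoreductase of the same demethylation, had 9.03, 26.3 and 42.3 scaled CPM (lowest, median, highest) in astrocytes, against 5.90 and 5.06 in aKO flowthrough and 10.4 and 17.7 in WT flowthrough. The fractions overlapped through 1 astrocyte library, WT 265, which lay below both WT flowthrough libraries. It was 3.18-fold higher (log2 fold change 1.67, SE 0.39, adjusted p = 0.00783, edgeR). Dhcr7, which carries out the last reduction of the 7-dehydrocholesterol route, had 13.0, 65.6 and 101 scaled CPM (lowest, median, highest) in astrocytes, against 10.1 and 9.40 in aKO flowthrough and 8.39 and 31.6 in WT flowthrough. Astrocyte libraries aKO 222 and WT 265 lay below the WT 202 flowthrough and above the other flowthrough libraries. It was 4.56-fold higher (log2 fold change 2.19, SE 0.55, adjusted p = 0.0109, edgeR).

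Tm7sf2, a C14 sterol reductase, had 7.29, 11.3 and 22.1 scaled CPM (lowest, median, highest) in astrocytes, against 4.66 and 3.82 in aKO flowthrough and 4.69 and 7.77 in WT flowthrough. Of the astrocyte libraries, aKO 222 was below the WT 202 flowthrough and WT 265 was just above it. It was 2.41-fold higher in astrocytes (log2 fold change 1.27, SE 0.34, adjusted p = 0.0174, edgeR). Its exons share bases with Vps51 on the same strand, so part of its count may belong to that gene. Cyp51, the lanosterol 14-demethylase, had 22.01, 53.0 and 82.4 scaled CPM (lowest, median, highest) in astrocytes, against 12.1 and 15.2 in aKO flowthrough and 10.6 and 31.7 in WT flowthrough. It was 3.11-fold higher (log2 fold change 1.64, SE 0.45, adjusted p = 0.0189, edgeR), and the astrocyte libraries below the WT 202 flowthrough were again aKO 222 and WT 265. Sc5d, the C5 desaturase, had 41.5, 122 and 194 scaled CPM (lowest, median, highest) in astrocytes, against 30.2 and 18.04 in aKO flowthrough and 30.0 and 89.7 in WT flowthrough. It was 3.14-fold higher (log2 fold change 1.65, SE 0.48, adjusted p = 0.0263, edgeR), with the WT 202 flowthrough above 3 astrocyte libraries. Lbr, a C14 reductase that is also a receptor of the inner nuclear membrane, and Nsdhl, the C4 decarboxylase, did not pass the test (log2 fold changes of 0.15 and 0.35). Ebp, the sterol isomerase, had an estimate on the other side of 0 (log2 fold change -0.77, SE 0.41, adjusted p = 0.205, edgeR).

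In the mevalonate and isoprenoid branch 3 of 7 genes were higher in astrocytes. Idi1, the isomerase of the isoprenoid units, had 6.27, 16.7 and 37.5 scaled CPM (lowest, median, highest) in astrocytes, against 1.97 and 3.94 in aKO flowthrough and 2.01 and 12.8 in WT flowthrough. The WT 202 flowthrough lay within the astrocyte range, and the other flowthrough libraries lay below it. It was 4.32-fold higher (log2 fold change 2.11, SE 0.61, adjusted p = 0.0250, edgeR). Hmgcs1, the HMG-CoA synthase, was 3.46-fold higher (log2 fold change 1.79, SE 0.53, adjusted p = 0.0291, edgeR). Mvd, the decarboxylase that makes isopentenyl diphosphate, was 2.06-fold higher (log2 fold change 1.04, SE 0.31, adjusted p = 0.0293, edgeR). The other 4, the kinases Mvk and Pmvk and the prenyl synthases Fdps and Ggps1, had log2 fold changes between -0.00231 and 0.76 and did not pass.

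Among the squalene genes 1 of 3 passed. Sqle, the squalene epoxidase and a rate-limiting step, was 2.61-fold higher (log2 fold change 1.38, SE 0.42, adjusted p = 0.0307, edgeR). Squalene synthase, Fdft1, and lanosterol synthase, Lss, had log2 fold changes of 1.27 and 0.93, with adjusted p = 0.0753 and 0.0804 from edgeR. Both share exonic bases with a gene on the opposite strand (Ctsb and 4930483K19Rik), and with the strand setting of the counting not given in the sources used here, such reads cannot be told apart. In acetyl-CoA supply 1 of 4 passed. Acss2 was 2.08-fold higher (log2 fold change 1.05, SE 0.32, adjusted p = 0.0296, edgeR), and it too overlaps genes on the opposite strand. Acly, which makes acetyl-CoA from citrate, Aacs, an acetoacetyl-CoA synthetase, and Acat2, the cytosolic thiolase, had log2 fold changes of 0.87 to 1.399 and did not pass. Stard4, a carrier of sterols between membranes, did not pass either (log2 fold change 0.64, SE 0.32, adjusted p = 0.178, edgeR).

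The regulators did not move as 1 group, and of the 5 only Insig1 passed the test. Insig1 had 51.5, 115 and 179 scaled CPM (lowest, median, highest) in astrocytes, against 38.3 and 22.7 in aKO flowthrough and 35.6 and 49.7 in WT flowthrough. It was the single gene of the 29 with all 8 astrocyte libraries above all 4 flowthrough libraries, a pattern that 5.01% of all genes showed. It was 3.02-fold higher (log2 fold change 1.60, SE 0.41, adjusted p = 0.0141, edgeR). Insig2, its paralogue, had 51.0, 58.9 and 82.7 scaled CPM (lowest, median, highest) in astrocytes, against 95.9 and 131 in aKO flowthrough and 125 and 70.3 in WT flowthrough. All astrocyte libraries lay below 3 of the 4 flowthrough libraries, and the WT 202 flowthrough lay within their range (log2 fold change -0.73, SE 0.29, adjusted p = 0.0922, edgeR). DESeq2 called Insig2 lower in astrocytes (adjusted p = 0.0221).

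Srebf2 had 17.1, 19.8 and 26.9 scaled CPM (lowest, median, highest) in astrocytes, against 14.2 and 28.9 in aKO flowthrough and 12.2 and 12.9 in WT flowthrough. The highest library was the aKO 205 flowthrough, and the fractions overlapped (log2 fold change 0.36, SE 0.27, adjusted p = 0.384, edgeR). Srebf1, whose products chiefly drive fatty acid genes, had 19.7, 29.3 and 49.9 scaled CPM (lowest, median, highest) in astrocytes, against 17.7 and 27.1 in aKO flowthrough and 18.3 and 20.8 in WT flowthrough. The flowthrough values lay in the lower part of the astrocyte range or just below it (log2 fold change 0.56, SE 0.32, adjusted p = 0.236, edgeR). Scap had 9.12, 13.9 and 21.5 scaled CPM (lowest, median, highest) in astrocytes, against 15.4 and 24.7 in aKO flowthrough and 11.4 and 8.07 in WT flowthrough, and the fractions overlapped (log2 fold change 0.02, SE 0.32, adjusted p = 0.971, edgeR). The 95% interval of Srebf2 was -0.22 to 0.94 on the log2 scale and that of Scap -0.65 to 0.69, so differences of that size were not shown to be absent.

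**Figure D2:**
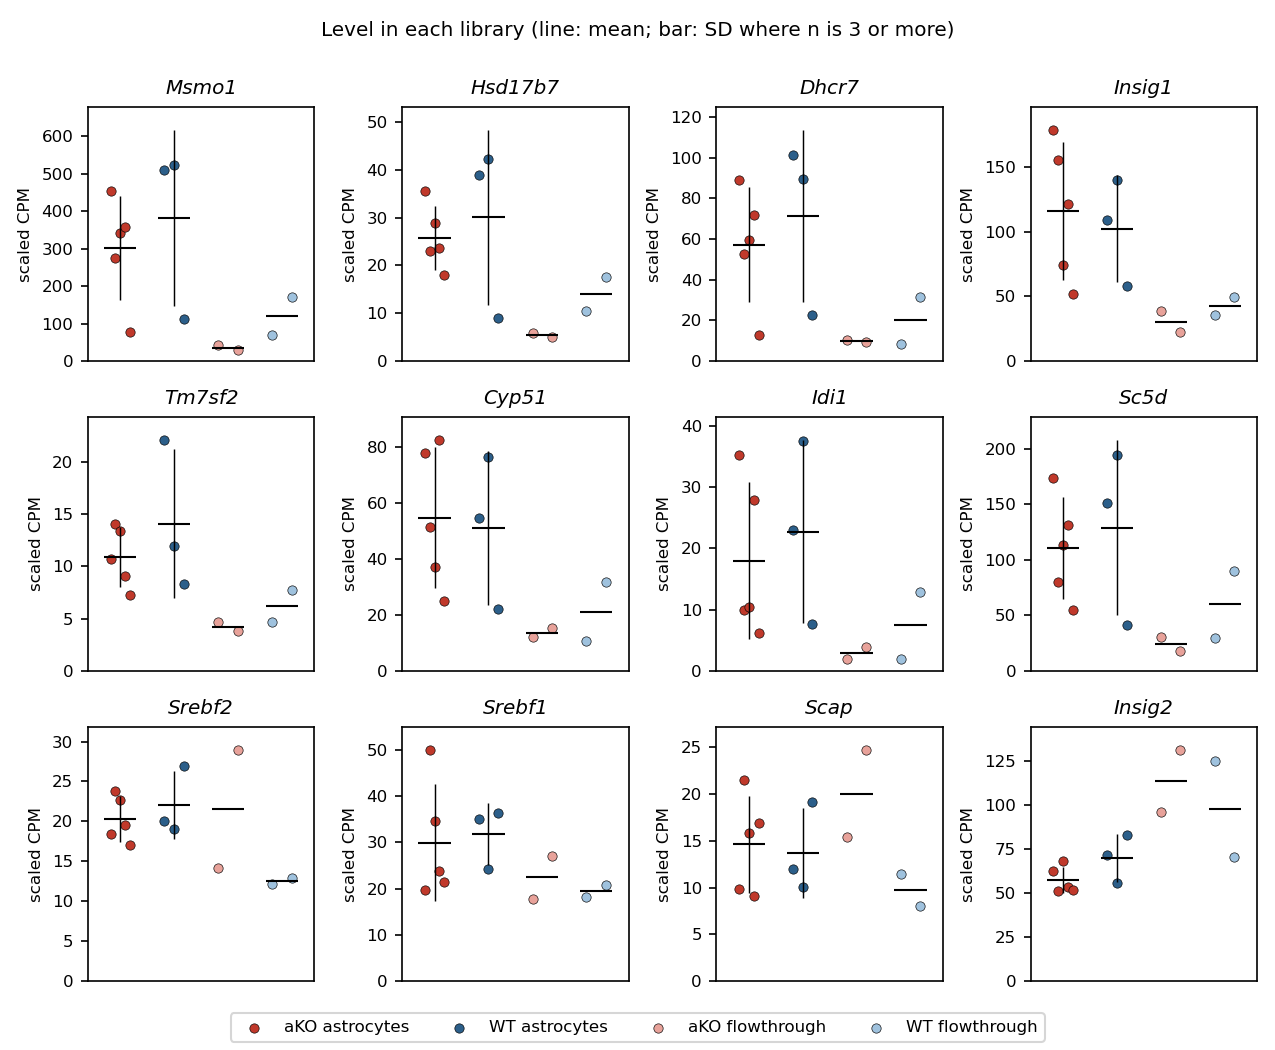
Scaled CPM (y axis, from 0) of 12 genes in each library (points), with the mean of each group (line) and its SD (bar, groups of 3 or more); groups from left to right are aKO astrocytes, WT astrocytes, aKO flowthrough and WT flowthrough. Insig1 has all astrocyte libraries above all flowthrough libraries, from 51.5 to 179 against 22.7 to 49.7 scaled CPM, and for Insig2 the flowthrough has the higher values.

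Within the 4 animals that gave both fractions, 21 of the 29 genes were higher in the astrocyte library of each animal, against 27.3% of all genes tested. Of the 29 genes, 24 were higher in astrocytes in aKO 203, 26 in aKO 205, 25 in WT 201 and 25 in WT 202. The median difference over the genes was 1.21 in aKO 203, 1.58 in aKO 205, 1.60 in WT 201 and 0.61 in WT 202, as log2 of scaled CPM + 0.5. For Msmo1 the differences were 3.36, 3.27, 2.88 and 1.60 in aKO 203, aKO 205, WT 201 and WT 202, and for Insig1 they were 2.21, 2.75, 1.60 and 1.49. The 8 genes that were not higher in each animal were Pmvk, Fdps, Ggps1, Lbr, Ebp, Srebf2, Scap and Insig2, and Insig2 was lower in all of them (-0.62, -1.35, -0.81 and -0.34). With the animal as a block, a fit to the 8 libraries of these animals called 18 of the 29 genes, all higher in astrocytes (edgeR). It called 5951 of all 20189 genes tested in either direction, 3206 of them higher. The same libraries without the block gave 17 of the 29 genes, and 3562 of all genes, 1549 of them higher. The 17 held the 12 genes above and also Acly, Aacs, Acat2, Fdft1 and Lss, and the block added Mvk. These 8 libraries leave out aKO 222 and WT 265, the astrocyte libraries with the lowest sums over the 29 genes. The rise from the 12 genes above is therefore partly built in.

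**Figure D3:**
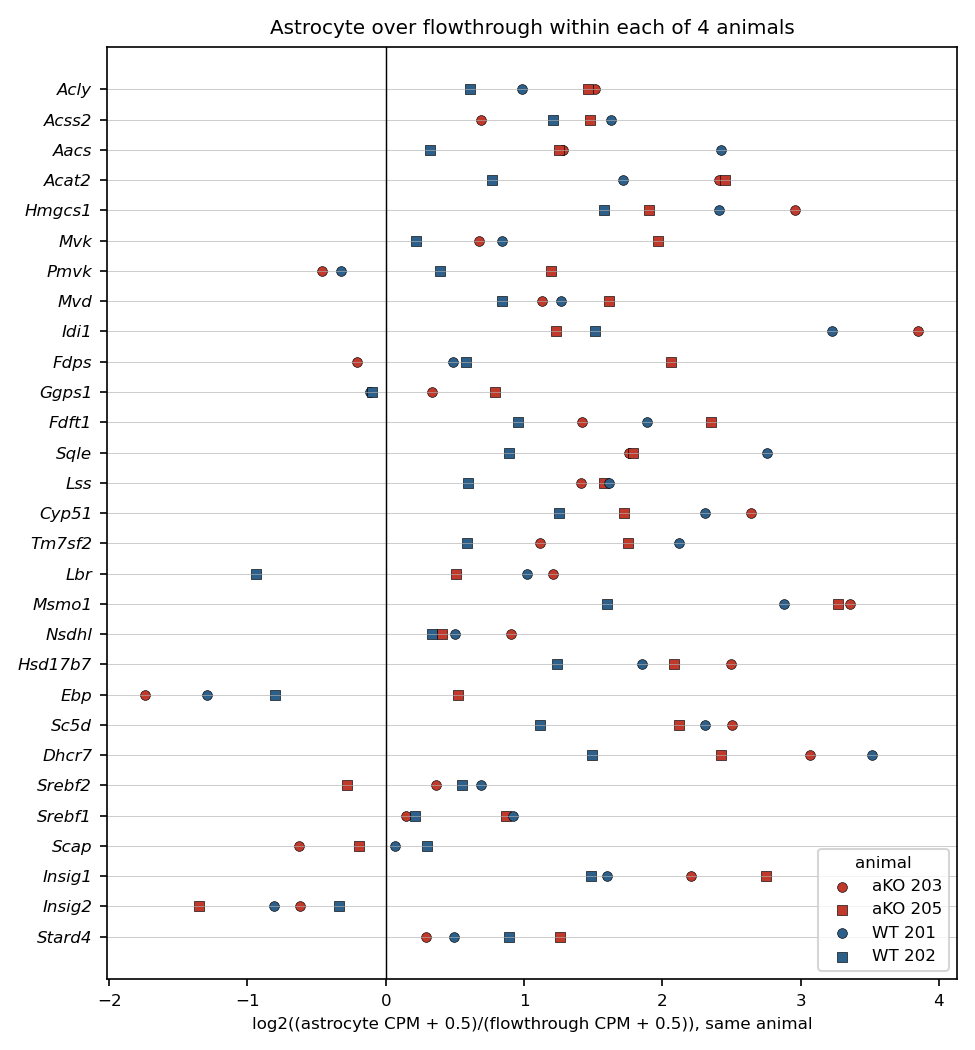
Difference between the astrocyte and the flowthrough library of the same animal (x axis, log2 of scaled CPM + 0.5) for each of the 29 genes, with 1 point per animal (red aKO, blue WT). Most points lie right of 0, Insig2 lies left of 0 in all 4 animals, and for Msmo1 and Insig1 WT 202 has the smallest difference.

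The count of 12 rested on few flowthrough libraries and moved when single libraries were left out. Without the WT 202 astrocytes, 6 of the 29 genes and 1161 of all 20533 genes tested were higher in astrocytes. In the main fit these were 12 of the 29 genes and 1758 of all 20637, so both counts fell. Whether the sterol genes fell more than other genes was not tested. Leaving out the WT 201 or the aKO 205 flowthrough lowered the count further. Each left 1 library in its group, so only effect sizes are given here. The median log2 fold change over the 29 genes was then 0.76 and 0.86. The median log2 fold change over the 29 genes stayed between 0.76 and 1.22 when any 1 library was left out. The WT 202 flowthrough had the highest level of the 4 flowthrough libraries for 20 of the 29 genes, against 29.6% of all genes. It also had the most astrocyte markers, 0.703% of counts against 0.0568% to 0.229% in the other flowthrough libraries, and the most oligodendrocyte markers, 0.671% against 0.0958% to 0.245%. The part of these markers in the sterol gene levels of that library was not tested.

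Astrocyte libraries also differed among themselves. The ratio of the highest to the lowest library had a median of 3.03 over the 29 genes and of 3.42 over all genes tested, and was 11.1 for Acat2, 7.80 for Dhcr7 and 6.69 for Msmo1. It was lowest for Srebf2, at 1.58. Libraries aKO 222 and WT 265 both lay below the other 6 for 18 of the 29 genes, against 16.1% of all genes. Summed over the 29 genes they held 1098 and 1018 scaled CPM, against 1625 to 2536 in the other 6. These 2 libraries also had the fewest astrocyte markers, 0.604% and 0.424% of counts against 0.782% to 1.86% in the other 6, and the fewest oligodendrocyte markers, 0.384% and 0.379% against 0.991% to 2.34%. Without both, 18 of the 29 genes and 2508 of all 20333 genes tested were higher in astrocytes than in flowthrough. In the main fit these were 12 of the 29 genes and 1758 of all 20637. Both libraries were singled out for low levels of the same genes, so the rise is partly built in.

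Markers of several cell types also differed between the fractions: 10 of 15 astrocyte markers, 11 of 13 oligodendrocyte markers and 6 of 11 neuronal markers were higher in astrocytes, and 12 of 12 microglial and 10 of 10 leukocyte markers were lower. With the oligodendrocyte marker level as a covariate, 0 of the 29 genes and 1002 of all genes passed between the fractions. With the astrocyte marker level as a covariate, an alternative chosen after seeing the data, 0 and 588 passed. The part of each cell type in the sterol gene difference cannot be told apart, because both marker levels follow the fraction.

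**Figure D4:**
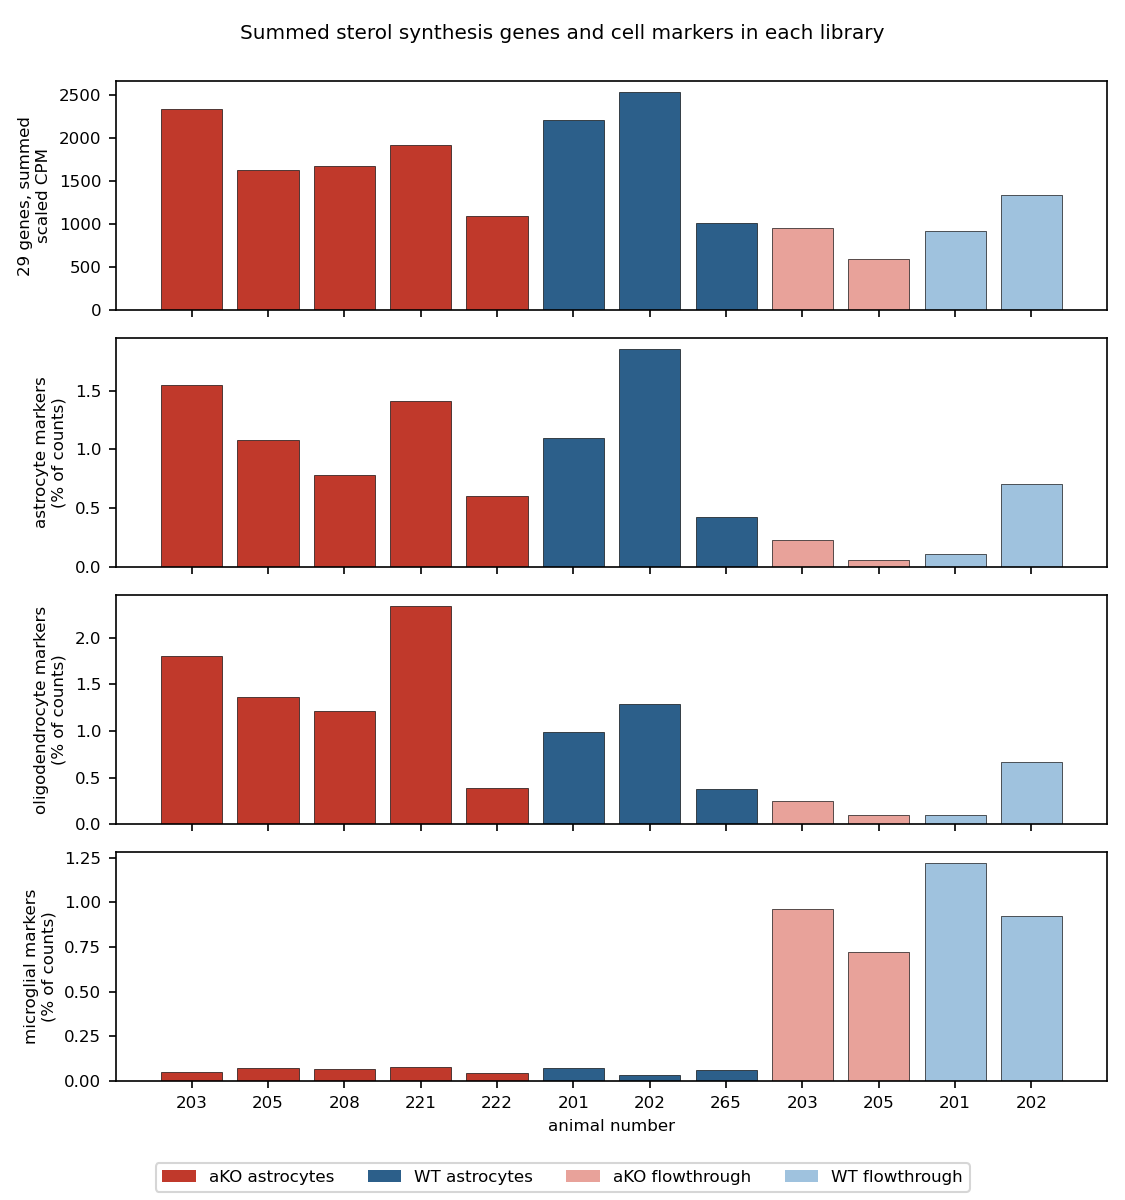
From top to bottom, the 29 genes summed (scaled CPM) and the share of counts (%) of astrocyte, oligodendrocyte and microglial markers in each of the 12 libraries, by animal number and coloured by group. The summed genes are lowest among astrocytes in aKO 222 and WT 265, which also have the lowest astrocyte and oligodendrocyte shares, and highest among flowthrough in WT 202.

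The comparison of aKO with WT astrocytes, which asks what loss of Bmal1 in astrocytes does to their transcripts, found no sterol synthesis gene past the threshold. It called 0 of the 29 genes, against 0.0264% of all 18950 genes tested (5 genes; edgeR's quasi-likelihood test, Benjamini-Hochberg adjusted p under 0.05). At an unadjusted p under 0.05 it was again 0 of 29, against 1.58% of all genes (299), and DESeq2 and limma voom each called 0 of 29. In 0 of the 29 genes were the aKO and WT libraries free of overlap, against 1.47% of all genes. Estimates were above 0 for 7 genes and below 0 for 22, with a median log2 fold change of -0.18, against 0.02 over all genes tested. All 29 intervals spanned 0, and their bounds ran from -1.52 (Msmo1) to 1.32 (Lbr), with standard errors of 0.31 to 0.59. With 5 aKO and 3 WT libraries, differences within a gene's interval were not shown to be absent.

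The smallest p of the 29 was that of Lbr, which had 30.8, 27.5, 15.9, 32.6 and 11.1 scaled CPM in aKO astrocytes and 27.2, 14.7 and 10.5 in WT astrocytes. Libraries aKO 203, 205 and 221 lay above all WT libraries, and aKO 208 and 222 lay within the WT range (log2 fold change 0.45, SE 0.41, unadjusted p = 0.294, edgeR). Tm7sf2 had 10.7, 14.1, 13.4, 9.09 and 7.29 scaled CPM in aKO astrocytes and 22.1, 11.9 and 8.27 in WT astrocytes, with WT 201 above all others (log2 fold change -0.35, SE 0.36). Mvk, the mevalonate kinase, had 15.6, 18.1, 17.1, 20.7 and 11.4 scaled CPM in aKO astrocytes and 14.8, 17.4 and 8.99 in WT astrocytes. Its lowest library was WT 265, and the other WT libraries lay within the aKO range (log2 fold change 0.28, SE 0.33). Acly, Stard4, Nsdhl and Lss had log2 fold changes of 0.32, -0.26, -0.28 and -0.29, with standard errors of 0.38, 0.32, 0.35 and 0.37.

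The regulators overlapped between genotypes in the same way. Insig2 had 62.2, 51.0, 68.1, 53.4 and 51.9 scaled CPM in aKO astrocytes and 71.3, 55.5 and 82.7 in WT astrocytes, so the 2 highest libraries were WT and the lowest was aKO 205 (log2 fold change -0.30, SE 0.33). Srebf2 had 18.4, 23.8, 22.7, 19.6 and 17.1 scaled CPM in aKO astrocytes and 20.04, 19.1 and 26.9 in WT astrocytes and an interval of -0.78 to 0.52 on the log2 scale, the narrowest of the 29 (log2 fold change -0.13, SE 0.31). Insig1 had 179, 156, 74.0, 122 and 51.5 scaled CPM in aKO astrocytes and 109, 140.1 and 58.3 in WT astrocytes, with aKO libraries both above and below all WT libraries (log2 fold change 0.20, SE 0.45). It is 1 of the 5 genes with CACGTG in a promoter window, and the other 4, Hsd17b7, Sc5d, Dhcr7 and Scap, had log2 fold changes of -0.19, -0.20, -0.29 and 0.07.

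Among the enzymes, Hmgcs1 had 319, 146, 96.2, 249 and 70.1 scaled CPM in aKO astrocytes and 171, 309 and 64.0 in WT astrocytes (log2 fold change -0.02, SE 0.55). Both genotypes spread over nearly the whole range, with aKO 222 and WT 265 at the bottom of each. Sqle had 65.6, 69.0, 37.8, 62.5 and 21.7 scaled CPM in aKO astrocytes and 79.9, 60.6 and 28.4 in WT astrocytes, with the same libraries lowest in each group (log2 fold change -0.11, SE 0.43). By role, the medians were -0.20 for acetyl-CoA supply, -0.03 for the mevalonate branch, -0.29 for the squalene genes, -0.20 for the sterol ring and -0.10 for the regulators. 

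Several marker lists leaned to one side in the same comparison, with 0 of the markers named here past the threshold. Estimates were above 0 for 13 of 13 oligodendrocyte markers (median log2 fold change 0.81) and 10 of 10 endothelial markers (0.43). They were below 0 for 9 of 9 ependymal markers (-0.82), 8 of 8 choroid plexus markers (-0.28) and 12 of 15 astrocyte markers (-0.19). Oligodendrocyte markers took 0.384% to 2.34% of counts in aKO astrocytes and 0.379% to 1.29% in WT astrocytes. With the oligodendrocyte marker level as a covariate the median of the 29 genes was -0.38. Under that fit 5 of the 29 genes had an unadjusted p under 0.05, against 4.32% of all genes (818), with 0 of the 29 past the adjusted threshold. With the astrocyte marker level instead, the median was -0.14 and 0 of the 29 genes had an unadjusted p under 0.05, against 2.22% of all genes (421). The part of the endothelial, ependymal and choroid plexus markers was not tested. Counting astrocyte library 202 as aKO gave estimates above 0 for 17 genes and a median of 0.13, with 0 called.

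In flowthrough, with 2 aKO and 2 WT libraries, 0 of the 29 genes differed between genotypes, against 0% of all 20637 genes (edgeR, adjusted p under 0.05). At an unadjusted p under 0.05 there were 2 of 29, against 3.96% of all genes (817): Hsd17b7, with 5.90 and 5.06 scaled CPM in aKO and 10.4 and 17.7 in WT flowthrough, and Msmo1, with 43.6 and 28.1 in aKO and 68.8 and 172 in WT flowthrough. Both were chosen for naming after their values were seen. For these 2 genes the log2 fold changes were -1.35 and -1.75 (adjusted p = 0.804 for each in edgeR). Estimates were below 0 for 23 of the 29 genes and for 22 of the 23 enzymes, with a median over the 29 of -0.55, against 46.5% below 0 and a median of 0.07 over all genes. In the same comparison 15 of 15 astrocyte markers and 9 of 11 neuronal markers were also below 0 (medians of -1.24 and -0.74), with 0 of them past the threshold. Astrocyte markers took 0.229% and 0.0568% of counts in aKO flowthrough and 0.110% and 0.703% in WT flowthrough. With the astrocyte marker level as a covariate, chosen after seeing the data, the median of the 29 genes was 0.0070 and 15 estimates were above 0. Of the 5 regulators 4 had estimates above 0, with log2 fold changes of 1.04 for Scap, 0.78 for Srebf2, 0.22 for Insig2 and 0.20 for Srebf1. Insig1 had -0.48. Scap and Srebf1 each share exonic bases with a gene on the opposite strand (5830462I19Rik and Rai1). Without the WT 202 flowthrough, the library with the most astrocyte and oligodendrocyte markers, the median of the 29 genes was -0.14 and 13 estimates were above 0. Without the aKO 203, the aKO 205 or the WT 201 flowthrough the median was -0.91, -0.36 and -0.89. With the oligodendrocyte marker level as a covariate it was -0.20. Each left-out library leaves 1 library in its group, and the part of the markers was not tested.

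For the other genes named in the astrocyte comparison, log2 fold changes in flowthrough were -0.37 for Lbr, -0.55 for Tm7sf2, -0.73 for Mvk, -0.42 for Acly, 0.02 for Stard4, -0.72 for Nsdhl, -0.55 for Lss, -0.77 for Hmgcs1 and -0.18 for Sqle. Their standard errors lay between 0.50 and 0.80. The difference between the genotype effects of the fractions was tested directly, and 0 of the 29 genes passed, against 0% of all genes. At an unadjusted p under 0.05 it was also 0 of 29, against 2.42% of all genes (499). The difference, astrocytes minus flowthrough, was -0.89 ± 0.54 (SE) for Srebf2, 0.995 ± 0.63 for Mvk, 0.73 ± 0.99 for Hmgcs1 and 0.05 ± 0.79 for Sqle on the log2 scale. The 2 genotype effects and their difference share the same flowthrough libraries.

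Levels between genes were compared per length, on the deposited RPKM scale (mean ± SD over 8 astrocyte and 4 flowthrough libraries). Fdps, which makes farnesyl diphosphate, was first in both fractions, with 104 ± 18.7 RPKM in astrocytes and 63.6 ± 34.1 RPKM in flowthrough. Pmvk, the phosphomevalonate kinase, was next in both, with 61.9 ± 14.5 RPKM in astrocytes and 44.9 ± 21.6 RPKM in flowthrough. In astrocytes Hmgcs1, Msmo1, Sc5d and Fdft1 followed, at 59.8 ± 34.3, 59.0 ± 30.3, 54.3 ± 25.2 and 53.4 ± 23.4 RPKM, and these neighbours lay within each other's spread. In flowthrough the next places were held by Ebp, with 25.2 ± 5.60 RPKM in astrocytes and 38.3 ± 21.5 RPKM in flowthrough, and Insig2, with 19.1 ± 3.905 RPKM in astrocytes and 26.6 ± 5.24 RPKM in flowthrough. The lowest were Acss2, with 1.85 ± 0.899 RPKM in astrocytes and 0.728 ± 0.126 RPKM in flowthrough, Stard4, with 2.41 ± 0.600 RPKM in astrocytes and 1.34 ± 0.558 RPKM in flowthrough, and Lss, with 2.53 ± 1.08 RPKM in astrocytes and 1.17 ± 0.662 RPKM in flowthrough. The regulators were spread over the order. Insig1 had 45.9 ± 23.8 RPKM in astrocytes and 12.5 ± 5.29 RPKM in flowthrough, which was place 7 of 29 in astrocytes and place 8 in flowthrough. The other 3 regulators lay lower: Srebf1 had 6.03 ± 3.03 RPKM in astrocytes and 3.28 ± 0.549 RPKM in flowthrough, Srebf2 4.54 ± 1.17 RPKM in astrocytes and 2.94 ± 0.973 RPKM in flowthrough and Scap 2.98 ± 1.33 RPKM in astrocytes and 2.44 ± 0.849 RPKM in flowthrough.

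Neighbouring pathways were read in the same way. Of 16 genes of fatty acid synthesis, 8 were higher and 0 lower in astrocytes than in flowthrough. Among them Acsl3, which activates fatty acids, had a log2 fold change of 2.92, Acaca, the acetyl-CoA carboxylase, 1.31, the elongase Elovl6 1.11 and Gpam, which starts glycerolipid synthesis, 2.21 (adjusted p = 0.000483, 0.00729, 0.00887 and 0.0118, edgeR). Of 9 further sterol synthesis genes 1 was higher, and of 9 genes of SREBP processing and 11 of other isoprenoid branches 0 passed in either direction. Of 22 genes of sterol uptake, efflux and storage, 3 were higher and 1 was lower. Over all genes tested, 8.52% were higher and 17.0% differed in either direction. The counts of this list and of the further sterol genes lay near these shares. Lcat, which esterifies cholesterol on lipoproteins, was 6.67-fold higher and Abcg4, a sterol exporter, 2.75-fold higher (adjusted p = 0.00438 and 0.0233, edgeR). Mylip, a ubiquitin ligase that lowers lipoprotein receptors, had a log2 fold change of -2.72 (adjusted p = 1.37e-05, edgeR), lower in astrocytes. The median log2 fold changes were 1.12 for fatty acid synthesis, 0.20 for the further sterol genes, -0.13 for SREBP processing, 0.33 for the isoprenoid branches and -0.34 for uptake, efflux and storage. Between aKO and WT astrocytes, 0 genes of these 5 lists passed the threshold.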

How the data were processed

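The deposited files give, for each Ensembl gene and library, a read count, CPM and RPKM made by the authors. The build was GRCm38, and the tools were STAR 2.5.1a, featureCounts 1.4.6-p5 (with Subread) and bcl2fastq, per the submitters' processing notes. How strand and multi-mapping reads were handled, and which annotation release was used, is not given in the sources used here. The deposited CPM equalled count over total and served only as a check, and the deposited RPKM served to compare levels between genes. Symbols came from GENCODE vM21 for 40254 of 41388 identifiers. The other 1134 stayed in the tests.

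The deposited counts went into edgeR 4.0.16 (R 4.3.3; quasi-likelihood test, robust dispersion, TMM, filterByExpr with a minimum count of 10 and a minimum total of 15). Two-sided p-values were adjusted over all genes tested by Benjamini-Hochberg, and 0.05 was the threshold. The aKO and WT astrocytes were compared on the 8 astrocyte libraries. For the rest, all 12 libraries were fitted as 4 groups, with genotypes weighted equally between fractions. The SE is the log2 fold change over the square root of F. Scaled CPM uses the TMM library sizes of all 12 libraries, and depth limits precision only for counting error. The code was tested on simulated data.

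Groups and animal numbers came from the titles. The flowthrough titles also carry a letter b of unknown meaning, so what it marks cannot be told apart from the fraction. The same number was read as the same brain. Deviations from the group means of the 2 fractions of an animal correlated across genes with r of 0.194 (203), 0.499 (205), 0.0379 (201) and 0.509 (202).

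Members and gene lists were chosen with earlier results of these data known. Named genes are all 29 members. Fold changes between genotypes are given for the 8 with the smallest p in astrocytes, for Srebf2, Insig1, Hmgcs1 and Sqle, and for other members where named. Between fractions, values per library are given for the 8 smallest p and the regulators, and for other lists at most 4 genes past the threshold. Some genes of those lists are not reported here. Alternatives were DESeq2 1.42.0 and its size factors, limma 3.58.1 voom with sample weights, no count filter, library sizes without mitochondrially encoded genes and Ttr, each library left out, pairs of libraries left out, library 202 as aKO, 1 fit for all libraries, the flowthrough alone, the animal as a block, and marker covariates.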

Additional observations from a re-analysis of the deposited data

Results flagged for a closer look

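In 1 of 29 genes checked for a library far from its group, Pmvk in aKO astrocytes, library aKO 222 stood apart with 169 scaled CPM, against 60.9 to 80.3 in the other aKO astrocyte libraries. Its gap to the nearest library was 0.821 of the range of the 5 libraries, above Dixon's critical value of 0.71. Such a check marks about 1 group in 20 by chance. WT astrocytes had 65.9, 110.2 and 101 scaled CPM.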

How the results depend on the processing

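Between genotypes, the 12 named sterol genes gave 228 alternative values in astrocytes, 276 in flowthrough and 288 for the difference of both effects, and 0 of these passed the threshold, while 16, 28 and 23 of them turned sign. These 3 comparisons had wide standard errors, and a gene that missed the threshold was not shown to be equal. Between fractions, the counts are 12 sterol genes and 3517 genes, and of the 46 values that turned sign 21 came with a marker covariate and another 21 were of Ggps1 or Scap, whose estimates lay near 0. The cause of each move was not tested. Given next are counts past the threshold and log2 fold changes. On the 8 libraries of 4 animals, 17 sterol genes passed between fractions with no replicate block, 5 of them not called on all 12 libraries, and the animal block added 1 call (Mvk) and changed no other call of a named gene. On the 8 libraries of 4 animals with no replicate block, 1 gene passed in the difference, and sign turned for Ggps1 0.21, Scap -0.063 between fractions. With DESeq2, 14 genes passed in astrocytes and 1 sterol gene was lower between fractions, and sign turned for Scap -0.024 between fractions. With DESeq2's size factors, sign turned for Scap -0.024 between fractions. With all 12 libraries in 1 fit, 1 gene passed in astrocytes. With library 202 as aKO, 0 genes passed in astrocytes, and sign turned for Hmgcs1 0.75 in astrocytes, and Stard4 0.020 in the difference. With the astrocyte marker covariate, 588 genes and 0 sterol genes higher passed between fractions, and sign turned for Acly 0.046, Hmgcs1 0.60, Insig1 0.040, Insig2 -0.045, Lbr 0.29, Lss 0.12, Sqle 0.76 in flowthrough, Aacs -0.76, Acat2 -0.83, Acly -0.034, Fdft1 -0.37, Fdps -0.11, Hmgcs1 -0.25, Idi1 -0.21, Lbr -0.76, Lss -0.21, Mvk -0.23, Nsdhl -0.14, Sc5d -0.12, Stard4 -0.036 between fractions, and Hmgcs1 -0.63, Lss -0.48, Sqle -0.94, Tm7sf2 -0.17 in the difference. With library sizes free of mitochondrially encoded genes and Ttr, sign turned for Stard4 -0.0043 in flowthrough. With limma voom, sign turned for Hmgcs1 0.20 in astrocytes, Sqle 0.0081, Stard4 -0.13 in flowthrough, Ggps1 0.13, Scap -0.15 between fractions, and Sqle -0.13 in the difference. With no count filter, 8 genes passed in astrocytes, 45 genes passed in flowthrough and 40 genes passed in the difference, and sign turned for Stard4 -0.054 in flowthrough, and Ggps1 0.0053 between fractions. With the oligodendrocyte marker covariate, 8 genes passed in astrocytes and 1002 genes and 0 sterol genes higher passed between fractions, and sign turned for Insig1 -0.21 in astrocytes, Hmgcs1 0.029, Lbr 0.12, Sqle 0.45 in flowthrough, Aacs -0.78, Acat2 -1.03, Fdft1 -0.011, Hmgcs1 -0.0066, Lbr -0.91, Lss -0.091, Mvk -0.094, Nsdhl -0.17 between fractions, and Hmgcs1 -0.49, Lbr -0.010, Lss -0.42, Sqle -0.95, Tm7sf2 -0.20 in the difference. On the 4 flowthrough libraries alone, sign turned for Stard4 -0.11 in flowthrough. With the replicate block, 5951 gene passed between fractions and 1 gene passed in the difference, and sign turned for Ggps1 0.25, Scap -0.10 between fractions, and Stard4 0.16 in the difference. Without aKO 221 and 222, 1 gene passed in the difference, and sign turned for Hmgcs1 0.064, Sqle 0.052 in astrocytes. Without aKO 222 and WT 265, 3 genes passed in astrocytes, and sign turned for Srebf2 0.15 in astrocytes, Stard4 -0.038 in flowthrough, Ggps1 0.22, Scap -0.15 between fractions, and Sqle -0.017 in the difference. With each library left out in turn, 0 to 5 genes passed in astrocytes, 0 to 1 gene passed in flowthrough, 1691 to 4107 genes passed between fractions and 0 to 16 sterol genes higher passed between fractions. In these fits, log2 fold changes that turned sign at least once ran over these ranges: Hmgcs1 -0.41 to 0.58, Insig1 -0.053 to 0.47, Sqle -0.41 to 0.20, Srebf2 -0.24 to 0.10, Tm7sf2 -0.59 to 0.11 in astrocytes, Hmgcs1 -1.45 to 0.31, Insig2 -0.14 to 0.63, Lbr -0.89 to 0.29, Lss -1.06 to 0.073, Sqle -0.82 to 0.76, Stard4 -0.88 to 0.47 in flowthrough, Ebp -1.14 to 0.084, Ggps1 -0.24 to 0.39, Lbr -0.087 to 0.49, Pmvk -0.010 to 0.96, Scap -0.13 to 0.23 between fractions, and Hmgcs1 -0.36 to 1.41, Lss -0.38 to 0.77, Sqle -0.89 to 0.69, Stard4 -0.71 to 0.64, Tm7sf2 -0.23 to 0.66 in the difference.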

Other observations

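Xist, which is transcribed from an inactive X chromosome, had 2044 counts in astrocyte library aKO 221 and 972 in aKO 222, against at most 46 in each of the other 10 libraries. Without aKO 221 and aKO 222, 12 of the 29 sterol genes and 1454 of all 20332 genes tested were higher in astrocytes than in flowthrough. Between aKO and WT astrocytes 0 of the 29 differed, against 7 of all 18410 genes tested (edgeR). Their median log2 fold change there was -0.04, against 0.03 over all genes tested.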
